A study of Mus musculus with 24 samples.

Results

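Adenylyl cyclases are the enzymes that make cyclic AMP (cAMP) from ATP. The genes Adcy3, Adcy5, Adcy6 and Adcy9 were looked up by gene symbol in an array study of mouse adrenal glands, taking for each gene the probe set with the highest mean signal. Of these 4 genes 3 had a probe set of their own, Adcy5, Adcy6 and Adcy9, out of 21957 genes measured in this way and 14411 bright enough to test. All 3 passed the filter on dim genes, a log2 signal over 5 in at least 4 arrays. The probe set listed for Adcy3 is listed for a neighbouring gene as well, so Adcy3 has no value here.

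In the adrenal cortex the pituitary hormone ACTH binds the receptor Mc2r, which acts through the stimulatory G protein to switch on adenylyl cyclases in the plasma membrane. The cAMP they make binds the regulatory subunits of protein kinase A (PKA), among them Prkar1a, and frees the catalytic subunits, which phosphorylate CREB and other proteins of steroid synthesis. The cyclases differ in what else they respond to. Adcy5 and Adcy6 are close relatives, both inhibited by calcium and by inhibitory G proteins, Adcy9 responds weakly to the plant compound forskolin, and Adcy3 is best known from the cilia of olfactory neurons.

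The arrays measured RNA of whole glands of mice aged 7 months on a mixed sv129-C57Bl/6 background, 4 arrays in each of 6 groups. Knockout (KO) mice, female, intact male and gonadectomised male (GDX, castrated for the last 2 months), had the genotype Prkar1afl/fl;cre/+;mTmG/mTmG, with Cre recombinase driven from Cyp11b2, which encodes aldosterone synthase and is active in the zona glomerulosa, and the fluorescent Cre reporter mTmG. The mice called wild type (WT) differed between the sexes. WT females were Prkar1afl/+;cre/+;mTmG/mTmG and thus carried Cre and 1 floxed allele, while WT intact males were Prkar1afl/fl;+/+;mTmG/mTmG and carried no Cre. Of the WT GDX males array 1 was Prkar1a+/+;+/+;mTmG/mTmG, array 2 Prkar1a+/+;cre/+;mTmG/+, array 3 Prkar1a+/+;cre/+;mTmG/mTmG and array 4 Prkar1afl/+;cre/+;mTmG/mTmG. Cre was absent from all WT intact males and present in all KO males, so an effect of carrying it cannot be told apart from the knockout there.

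All values are log2 signals, and a difference of 1 is a doubling of the signal. Prkar1a, the targeted gene, was lower in KO than in WT glands without overlap in each comparison of genotype. Its log2 signal was 6.67 to 7.35 in KO and 8.43 to 8.54 in WT females, 6.89 to 8.47 in KO and 8.72 to 8.91 in WT intact males, and 7.30 to 7.99 in KO and 8.59 to 8.94 in WT GDX males. The fall was called in females (limma adjusted p 5.83e-05) and GDX males (0.00477) but not in intact males (0.16). The exons that its probe set covers are not stated, so the check does not show how complete the deletion was. All 8 markers of the steroidogenic cortex, such as Star and Cyp11a1, were bright, with a list mean between 11.67 and 12.02 on every array, so the tissue label fits its markers. Array medians lay between 5.20 and 5.29. The 24 arrays were fitted together with limma, and a gene was called at a Benjamini-Hochberg adjusted p under 0.05 over all 14411 genes. Comparisons that use the same group share its arrays and are not independent.

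In females Adcy6 was 1.83-fold and Adcy9 1.20-fold lower in KO than in WT glands, while Adcy5 did not pass the test. Thus 2 of 3 were called, against 32.6% of all genes in either direction and 18.7% lower. In intact males limma called 0 of the 3 genes (1 at an unadjusted p under 0.05), against 0.111% of all genes (1080 at an unadjusted p under 0.05). In GDX males it called 0 as well (2 unadjusted), against 4.23% of all genes (2839 unadjusted). Adcy6 was the gene with the widest spread of group means, 1.02 on the log2 scale, against 0.34 for Adcy9 and 0.36 for Adcy5. The median gene tested spanned 0.31.

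**Figure D1:**
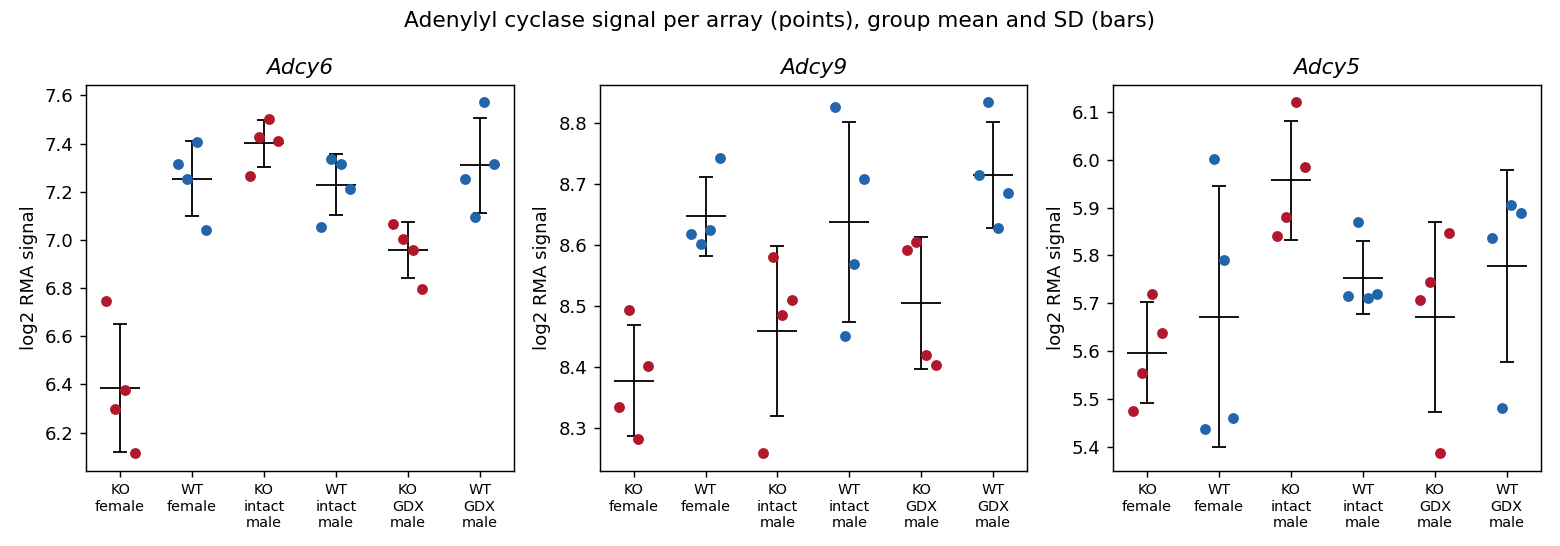
Log2 RMA signal (y axis) of Adcy6, Adcy9 and Adcy5 on each array (points, red for KO and blue for WT) by group (x axis), with the group mean and SD as black bars, n = 4 arrays each. The y axes do not start at 0 and differ between panels. The KO females of Adcy6, at 6.11 to 6.75, lie below all arrays of the other groups.

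Adcy6, one of the cyclases that calcium and inhibitory G proteins restrain, lies at chr15:98589978-98610287 in the RefSeq annotation of GRCm38.p6. Its log2 signal was 6.75, 6.30, 6.38 and 6.11 in KO females, against 7.32, 7.25, 7.41 and 7.04 in WT females. The highest KO female thus stood below the lowest WT female. The means were 6.38 ± 0.27 in KO and 7.25 ± 0.15 in WT females (SD, n = 4 each), a log2 change of -0.87 ± 0.12 (standard error, limma adjusted p 8.9e-06). By p-value Adcy6 ranked 303 among the 14411 genes of this comparison.

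In KO intact males Adcy6 read 7.27, 7.43, 7.50 and 7.41, against 7.06, 7.34, 7.32 and 7.21 in WT intact males. Both groups overlapped, and the change of 0.17 had a 95% interval of -0.07 to 0.41 (limma adjusted p 0.803). In KO GDX males it read 7.07, 7.01, 6.96 and 6.80, against 7.25, 7.10, 7.57 and 7.32 in WT GDX males. All KO GDX arrays stood below all WT GDX arrays, but by a narrow gap, and the change of -0.35 (95% interval -0.59 to -0.11) did not pass the test over all genes (limma adjusted p 0.0854). In intact males the interval lies wholly above that of the females, which runs from -1.11 to -0.63.

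The knockout change of Adcy6 differed between females and intact males. Its change in females was lower than that in intact males by 1.04 ± 0.16 on the log2 scale (interaction in limma, adjusted p 0.00047), with the gene at rank 71 of 14411 by p-value. Of all genes 16% were called in this interaction, and 1 of the 3 cyclases. The genotypes of the WT mice differed between the sexes too, so sex and control genotype cannot be told apart in it. Against GDX males the difference was -0.52 ± 0.16 (adjusted p 0.082), and the GDX change minus the intact male change was -0.52 ± 0.16 (adjusted p 0.282), where limma called 3.31% and 0.0278% of all genes. Neither passed, so a difference between the females and the GDX males, or between GDX and intact males, was not shown at this number of arrays. The WT GDX males also differed in control genotype from the WT females and the WT intact males. That cannot be told apart from sex or castration here. Without KO female array 1 or WT GDX array 3 the difference from GDX males was called (adjusted p 0.0234 and 0.0424). Prkar1a itself was lower in KO females than in KO intact males (log2 difference -0.81, limma adjusted p 0.00596). The extent of its loss cannot be told apart from sex in the interaction of Adcy6 with intact males either.

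The glands differed in more than the knocked-out gene. In KO females 6 of 6 zona glomerulosa markers and 6 of 7 capsule and mesenchyme markers fell. Their list means were 7.33 to 8.07 in KO against 9.54 to 9.98 in WT females for the glomerulosa, and 7.30 to 7.47 in KO against 8.21 to 8.38 in WT females for the capsule. Of 7 measured chromaffin markers of the medulla 5 fell, with list means of 9.06 to 9.66 in KO and 9.76 to 10.20 in WT females, and of 7 measured adipocyte markers 5 fell, at 7.94 to 8.76 in KO and 9.10 to 10.01 in WT females. Macrophage markers rose in 3 of 6 (7.08 to 8.22 in KO, 6.57 to 6.93 in WT females), and endothelial markers fell in 1 of 7 (8.51 to 8.65 in KO, 8.65 to 8.85 in WT females). Of 8 steroidogenic cortex markers 4 rose and 0 fell (list means 11.93 to 12.02 in KO, 11.71 to 11.83 in WT females). Of all genes 18.7% were called lower and 13.9% higher in this comparison, so 1 of 7 endothelial markers is no more than the share of all genes. Every measured marker of these lists stood over 5 in the mean of both groups.

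In whole glands, fewer cells of a type and less RNA per cell cannot be told apart. With the medulla list mean as a covariate the change of Adcy6 in females was -0.72 ± 0.14 (limma adjusted p 0.00101), and with the adipocyte list mean it was -0.58 ± 0.14 (adjusted p 0.00695), smaller by over 1.5 times than without it. The part of the steroidogenic cortex, glomerulosa, capsule and macrophage lists in the change was not tested. In GDX males 2 of 6 glomerulosa markers and 1 of 7 capsule markers fell, against 1.97% of all genes called lower. Glomerulosa list means were 8.19 to 9.01 in KO against 9.32 to 9.82 in WT GDX males. The part of these lists was not tested either.

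Adcy9, the most divergent of the membrane cyclases, lies at chr16:4284886-4437236. Its log2 signal was 8.33, 8.49, 8.28 and 8.40 in KO females, against 8.62, 8.60, 8.62 and 8.74 in WT females. No KO female reached the lowest WT female. The means were 8.38 ± 0.09 in KO and 8.65 ± 0.06 in WT females (SD, n = 4 each), a change of -0.27 ± 0.08 (limma adjusted p 0.0151). This was a smaller change than that of Adcy6, at rank 3282 of 14411 by p-value. With the adipocyte covariate the change was larger, -0.46 ± 0.10 (adjusted p 0.00391), and with the medulla covariate it was -0.32 ± 0.10 (adjusted p 0.0347).

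In both called cyclases the arrays of KO and WT females did not overlap, as in 32.8% of all genes. With so broad a background, a count of 2 among 3 says little on its own.

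In KO intact males Adcy9 read 8.26, 8.58, 8.48 and 8.51, against 8.83, 8.45, 8.57 and 8.71 in WT intact males. The ranges crossed, as for all 3 cyclases in intact males (4.45% of all genes had no overlap), and the change of -0.18 (95% interval -0.35 to -0.01) had an adjusted p of 0.643 in limma. In KO GDX males Adcy9 read 8.59, 8.60, 8.42 and 8.40, against 8.71, 8.83, 8.63 and 8.68 in WT GDX males. Here the groups did not overlap, and the change of -0.21 (95% interval -0.38 to -0.04) had an adjusted p of 0.15. Adcy9 thus had a negative change of like size in the 3 comparisons of genotype, called in females only. A difference between the female change and either male change was not shown, since the interaction was -0.09 ± 0.12 against intact males (adjusted p 0.654) and -0.06 ± 0.12 against GDX males (adjusted p 0.841). In GDX males 2 of the 3 cyclases had no overlap, both lower in KO, against 5.04% of all genes lower without overlap and 9.62% in either direction.

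Adcy5, the closest relative of Adcy6, lies at chr16:35154494-35305743. Its log2 signal was 5.47, 5.55, 5.72 and 5.64 in KO females, within the span of 5.44, 6.00, 5.79 and 5.46 in WT females. The change was -0.08, with a 95% interval of -0.32 to 0.17 (limma adjusted p 0.678), which leaves out a fall of the signal as large as that of Adcy6. In intact males the KO arrays read 5.84, 5.88, 6.12 and 5.99, against 5.71, 5.87, 5.71 and 5.72 in WT (change 0.20, 95% interval -0.05 to 0.45, adjusted p 0.766). In GDX males they read 5.71, 5.74, 5.39 and 5.85, against 5.84, 5.48, 5.91 and 5.89 in WT (change -0.11, 95% interval -0.36 to 0.14, adjusted p 0.684). Adcy5 was dim, between 5.39 and 6.12 on all 24 arrays, where small differences are hard to read. Its intervals therefore speak of the signal and do not settle how far the RNA changed.

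Whether the 3 cyclases changed unequally was tested on the log ratio of each pair within an array, in 9 exact two-sided permutation tests of 4 arrays against 4, for which the smallest p possible is 0.0286. In females the change of Adcy6 was lower than that of Adcy9 by 0.60 and lower than that of Adcy5 by 0.80 (both exact p 0.0571, adjusted over the 9 tests 0.129). The log ratio of Adcy6 to Adcy5 was 0.48 to 1.27 in KO females and 1.25 to 1.88 in WT females, so the ranges just crossed. In intact males the change of Adcy6 exceeded that of Adcy9 by 0.35 (exact p 0.0571, adjusted 0.129). The 9 exact p lay between 0.0571 and 0.657. With 4 arrays a group no single pair could pass the adjustment, since that needs the smallest possible p in at least 6 of the 9 tests, so these tests cannot settle whether the cyclases changed unequally.

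The promoters of the cyclases are shown because CREB, the factor that PKA phosphorylates, binds the cAMP response element. RefSeq promoters of GRCm38.p6, from 250 bases before to 50 bases after an annotated start, were listed for Adcy3, Adcy5 and Adcy9, 3 of the 4 genes. Those of Adcy9, called in females, and Adcy5, not called, are printed from 5′ to 3′ on the strand of the gene. Capitals mark the element's core TGACG, searched on both strands. The Adcy9 window is chr16:4420449-4420748 on the minus strand, and that of Adcy5 is chr16:35154614-35154913 on the plus strand. Both windows lie inside the annotated span of their gene.
Adcy9: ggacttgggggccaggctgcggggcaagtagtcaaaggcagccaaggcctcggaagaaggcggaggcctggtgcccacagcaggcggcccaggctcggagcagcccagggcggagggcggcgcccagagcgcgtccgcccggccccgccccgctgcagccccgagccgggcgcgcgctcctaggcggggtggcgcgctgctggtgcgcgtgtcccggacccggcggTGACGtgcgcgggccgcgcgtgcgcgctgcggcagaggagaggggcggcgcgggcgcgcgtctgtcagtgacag
Adcy5: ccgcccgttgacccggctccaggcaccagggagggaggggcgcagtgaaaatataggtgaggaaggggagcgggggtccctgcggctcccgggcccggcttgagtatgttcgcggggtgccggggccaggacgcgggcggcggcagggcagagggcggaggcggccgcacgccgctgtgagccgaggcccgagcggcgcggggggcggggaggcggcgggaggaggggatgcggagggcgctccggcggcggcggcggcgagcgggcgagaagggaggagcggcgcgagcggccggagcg

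The Adcy9 window held 1 core, which begins 24 bases before the annotated start, and the Adcy5 window held 0, as did both listed windows of Adcy3. The whole element TGACGTCA, which contains the core, was in neither. Of all 32851 promoters of this length 20.8% held the core and 1.79% the whole element, so 1 match among these windows is common. Both windows are rich in G and C (78.3% for Adcy9 and 79% for Adcy5). A match of letters is a description and does not show binding.

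**Figure D2:**
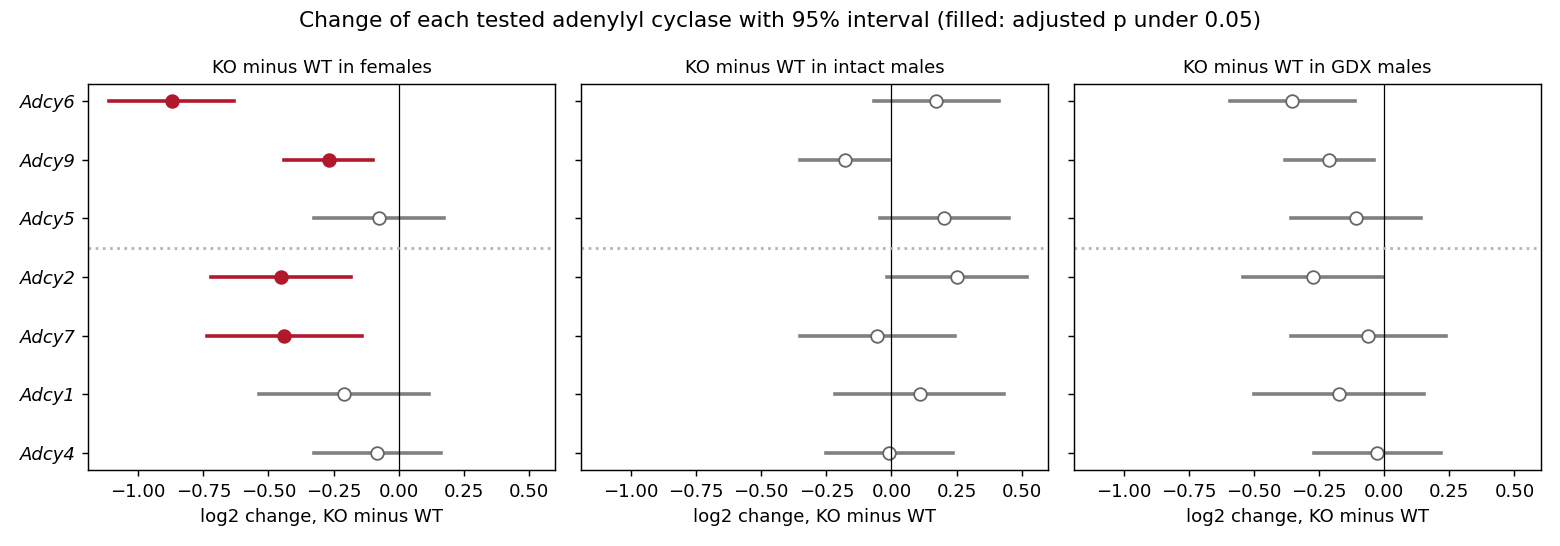
Log2 change between KO and WT glands (x axis, points) with its 95% interval from limma (lines) for the 7 adenylyl cyclases tested (y axis), in females, intact males and GDX males. Filled red points passed at an adjusted p under 0.05. They are Adcy6, Adcy9, Adcy2 and Adcy7 in females, and the male panels hold none.

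Of the 6 other adenylyl cyclases, 4 passed the filter. In KO females 2 of these 4 were called, both lower, against 32.6% of all genes called and 18.7% lower. Adcy2, a cyclase stimulated by G protein beta-gamma subunits, read 4.96 to 5.16 in KO against 5.36 to 5.65 in WT females, without overlap (change -0.45 ± 0.13, limma adjusted p 0.0101). Adcy7, of the same subgroup, read 5.56 to 6.51 in KO against 6.40 to 6.66 in WT females, with overlap (change -0.44 ± 0.14, adjusted p 0.0224). Adcy1, stimulated by calcium and calmodulin, stood at -0.21 ± 0.16 (adjusted p 0.327) and Adcy4, the third of the beta-gamma subgroup, at -0.08 ± 0.12 (adjusted p 0.635). The median change of the 4 was -0.32, against -0.02 for all genes. In intact males and in GDX males limma called 0 of the 4 (0 and 1 at an unadjusted p under 0.05), against 0.111% and 4.23% of all genes.

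Adcy2 resembled Adcy6 in that its knockout change differed between females and intact males, by -0.70 ± 0.18 (limma adjusted p 0.0126). For Adcy2 as well, sex and control genotype cannot be told apart. It was dim in KO females, where 3 of 4 arrays stood over 5, so the size of its fall is uncertain. Adcy8 and Adcy10, the soluble bicarbonate-stimulated cyclase, lay under 5 in every group mean and were not tested. Their group means ranged from 4.04 to 4.39 for Adcy8 and from 3.37 to 3.87 for Adcy10.

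Castration changed Adcy6 in KO males. In KO mice Adcy6 was lower in GDX than in intact males by 0.44 ± 0.12 on the log2 scale (log2 change -0.44, limma adjusted p 0.0123), with 6.80 to 7.07 in KO GDX males and 7.27 to 7.50 in KO intact males. These ranges did not meet. In WT mice the same comparison gave 0.08 (95% interval -0.16 to 0.32, adjusted p 0.784), with 7.10 to 7.57 in WT GDX and 7.06 to 7.34 in WT intact males. That the effect of castration differed between KO and WT was not shown, since this is the interaction given above with an adjusted p of 0.282. WT GDX and WT intact males also differed in control genotype, so castration and control genotype cannot be told apart in WT mice. Adcy9 changed by 0.05 in KO (adjusted p 0.756) and by 0.08 in WT males (adjusted p 0.682), and Adcy5 by -0.29 in KO (adjusted p 0.108) and 0.02 in WT males (adjusted p 0.95).

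Of all genes 15.4% were called between KO GDX and KO intact males, 8.59% lower and 6.85% higher, against 1 of the 3 cyclases, called lower. It was 4.5% of all genes between WT GDX and WT intact males, against 0 of 3 in limma (0 at an unadjusted p under 0.05). The castrated KO glands also had lower endothelial markers in 5 of 7 (list means 8.57 to 8.78 in KO GDX, 8.82 to 9.11 in KO intact males) and glomerulosa markers in 2 of 6 (8.19 to 9.01 in KO GDX, 8.99 to 10.14 in KO intact males). Capsule markers were lower in 2 of 7 (7.85 to 8.85 in KO GDX, 8.07 to 8.51 in KO intact males) and medulla markers in 1 of 7 (10.06 to 10.39 in KO GDX, 10.25 to 10.53 in KO intact males), and adipocyte markers were higher in 2 of 7 (9.15 to 9.62 in KO GDX, 8.04 to 9.32 in KO intact males). The change of Adcy6 was -0.38 with the medulla covariate and -0.56 with the adipocyte covariate, called with both, and the part of the other lists was not tested. Adcy2 was called lower too, by -0.39 ± 0.13 (adjusted p 0.0456), with overlapping arrays.

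Between the sexes the WT glands gave no call. The control genotypes of WT females, WT intact males and WT GDX males differed, so sex and control genotype cannot be told apart in these comparisons. WT females read close to WT intact males in Adcy6 (difference 0.02, 95% interval -0.22 to 0.26), Adcy9 (0.01, -0.16 to 0.18) and Adcy5 (-0.08, adjusted p 0.75). Limma called 0 of 3 (0 at an unadjusted p under 0.05), where 7.75% of all genes were called. Against WT GDX males the differences were -0.06, -0.07 and -0.11 for Adcy6, Adcy9 and Adcy5 (adjusted p 0.92, 0.828 and 0.812), with 0 called (0 unadjusted) and 0.902% of all genes called.

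In KO glands the sexes differed in Adcy6. KO females, at 6.11 to 6.75, stood below KO intact males, at 7.27 to 7.50, with a difference of -1.02 ± 0.12 (limma adjusted p 8.19e-07), a 2.02-fold lower signal. They stood below KO GDX males, at 6.80 to 7.07, as well, with a difference of -0.57 ± 0.12 (adjusted p 0.00179). The call against GDX males ended with the medulla covariate (-0.37 ± 0.16, adjusted p 0.219) or the adipocyte covariate (-0.34 ± 0.13, adjusted p 0.0982). Neither list mean overlapped between KO females and KO GDX males, so these covariates are hard to separate from group. Markers were lower in KO females than in KO GDX males in 6 of 7 for the medulla, 5 of 7 for adipocytes, 5 of 6 for the glomerulosa, 5 of 7 for the capsule and 0 of 7 for endothelium, and macrophage markers were higher in 1 of 6. Against KO intact males they were lower in 7 of 7 for the medulla, 3 of 7 for adipocytes, 6 of 6 for the glomerulosa, 6 of 7 for the capsule and 7 of 7 for endothelium, and macrophage markers were higher in 2 of 6. Steroidogenic cortex markers were higher in KO females in 4 of 8 against KO intact males and in 1 of 8 against KO GDX males. The part of the steroidogenic cortex, glomerulosa, capsule, endothelial and macrophage lists in the differences of Adcy6 was not tested. Of all genes 9.71% were called lower and 8.72% higher against KO GDX males. The shares were 23.1% lower and 17.8% higher against KO intact males. Against KO intact males the difference of Adcy6 was -0.74 with the medulla covariate (adjusted p 0.0173) and -0.90 with the adipocyte covariate (adjusted p 2.35e-06). The comparisons in KO share the KO female arrays with the comparison of genotype in females. Prkar1a was lower in KO females than in KO intact males too (-0.81 ± 0.23, limma adjusted p 0.00596), with overlapping arrays. Its difference from KO GDX males was -0.52 ± 0.23 (adjusted p 0.114). Sex and the extent of Prkar1a loss therefore cannot be told apart in KO glands.

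Adcy5 was lower in KO females than in KO intact males by 0.36 ± 0.12 (log2 difference -0.36, limma adjusted p 0.0194), with 5.47 to 5.72 in KO females and 5.84 to 6.12 in KO intact males. This call ended without KO female array 1 (adjusted p 0.0582), without KO intact male array 3 (adjusted p 0.0695), after another quantile normalization (adjusted p 0.0514) and with the medulla covariate, where the difference shrank to -0.06 (adjusted p 0.883). Adcy9 differed by -0.08 between KO females and KO intact males (adjusted p 0.462) and by -0.13 between KO females and KO GDX males (adjusted p 0.3). In all 2 of the 3 cyclases were called lower between KO females and KO intact males, where 41% of all genes were called and 23.1% were lower. Between KO females and KO GDX males it was 1 of 3, against 18.4% of all genes called and 9.71% lower. Of the 4 other cyclases tested, 3 were called lower between KO females and KO intact males. These were Adcy1 (-0.56, limma adjusted p 0.00671), Adcy2 (-0.67, adjusted p 0.000281) and Adcy7 (-0.57, adjusted p 0.00282). Adcy4 was not called (-0.08, adjusted p 0.611). Between KO females and KO GDX males limma called 0 of these 4.

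Ordered by group mean, Adcy6 ran from KO intact males (7.40) through WT GDX males (7.31), WT females (7.25), WT intact males (7.23) and KO GDX males (6.96) to KO females (6.38). Neighbours in this order overlapped except at the last step, where every KO female stood below every KO GDX male. Adcy9 ran from WT GDX males (8.71), WT females (8.65) and WT intact males (8.64) to KO GDX males (8.50), KO intact males (8.46) and KO females (8.38), so the WT means stood above the KO means, with overlap at each step. Adcy5 ran from KO intact males (5.96) to KO females (5.60), with overlap at each step.

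The genes with the nearest pattern to each cyclase were found by the root-mean-square difference of centred group means over the 6 groups. For Adcy6, whose own group means spread 0.34 about their mean, these were Rragb (0.04), Ifit1 (0.05) and Armcx2 (0.07). Rragb is a small GTPase of amino acid sensing, and its means of 5.56 in KO and 6.50 in WT females and 6.24 in KO and 6.48 in WT GDX males are lowest in KO females as well. For Adcy9 they were Rflnb (0.02), Tmem65 (0.02) and Mctp1 (0.02), with an own spread of 0.12. For Adcy5 they were Mir181b-2 (0.02), Bmf (0.03) and Ushbp1 (0.03), with an own spread of 0.11. The SD of Adcy5 within groups was 0.18, larger than that spread, so its near matches say little.

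**Figure D3:**
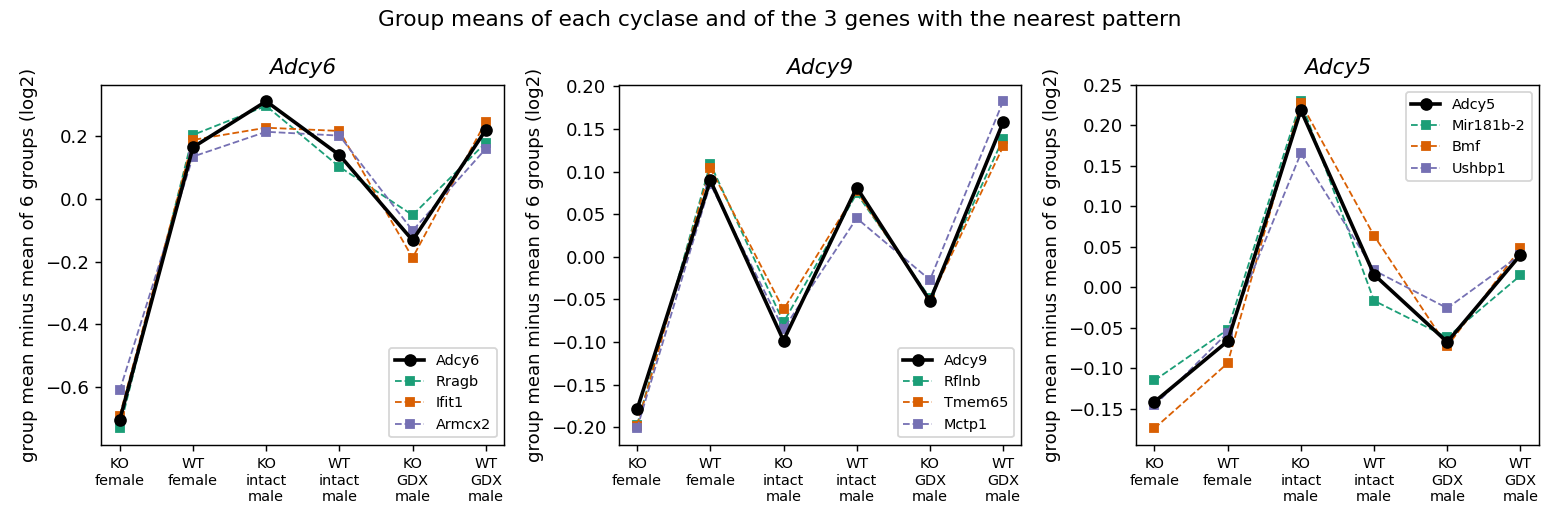
Group means minus the mean over the 6 groups (y axis, log2) by group (x axis) for each cyclase (black) and the 3 genes with the smallest root-mean-square difference from it (coloured, dashed). Lines join groups only to guide the eye. The Adcy6 panel spans the widest range, with KO females lowest in all 4 genes shown.

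The rest of the cAMP pathway was followed in 7 lists of 78 genes, the other cyclases among them, of which 61 were tested. In KO females 28 of the 61 were called, 8 higher and 20 lower, with the targeted gene Prkar1a among the lower ones. This is 45.9%, against 32.6% of all genes, and the median change was -0.13, against -0.02 for all genes. In intact males limma called 0 of 61 (4 at an unadjusted p under 0.05), against 0.111% of all genes. In GDX males it called 2, Mrap and Prkar1a, or 3.28%, against 4.23% of all genes.

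Upstream of the cyclases 3 of 16 genes were called in KO females, where 32.6% of all genes were. Of 6 tested G protein alpha subunits, Gnai3, an inhibitory subunit, was called (-0.26 ± 0.06, limma adjusted p 0.00265). Of 10 tested Gs-coupled receptors and accessory proteins, Mrap, the accessory protein of the ACTH receptor, rose by 1.21 ± 0.11 (adjusted p 1.95e-07) and Pth1r, the parathyroid hormone receptor, changed by -0.66 ± 0.11 (adjusted p 7.26e-05). Mrap rose in GDX males too (0.76 ± 0.11, adjusted p 0.000838).

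Downstream of cAMP the lists are to be read against the same 32.6% of all genes called in females. Of 7 tested PKA subunits and inhibitors 1 rose and 3 fell in KO females, Prkar1a and the regulatory subunit Prkar1b (-0.59 ± 0.13, limma adjusted p 0.00177) by most. Of 14 tested cAMP phosphodiesterases, which break cAMP down, 3 rose and 3 fell, with Pde3b, an enzyme abundant in adipocytes, at -1.42 ± 0.43 (adjusted p 0.0143) and Pde8a at 0.77 ± 0.11 (adjusted p 1.24e-05). Of 11 A-kinase anchoring proteins, which tether PKA, 2 rose and 6 fell, Akap6 (-0.73 ± 0.20, adjusted p 0.00694) and Akap7 (-0.49 ± 0.10, adjusted p 0.000481) by most, with Akap6 under 5 in the mean of both female groups. Of 9 other effectors and CREB regulators 1 rose and 4 fell. Sik1, a kinase that CREB induces, rose by 1.19 ± 0.27 (adjusted p 0.00217), and Crtc3, a CREB coactivator, changed by -0.41 ± 0.07 (adjusted p 0.000162).

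**Figure D4:**
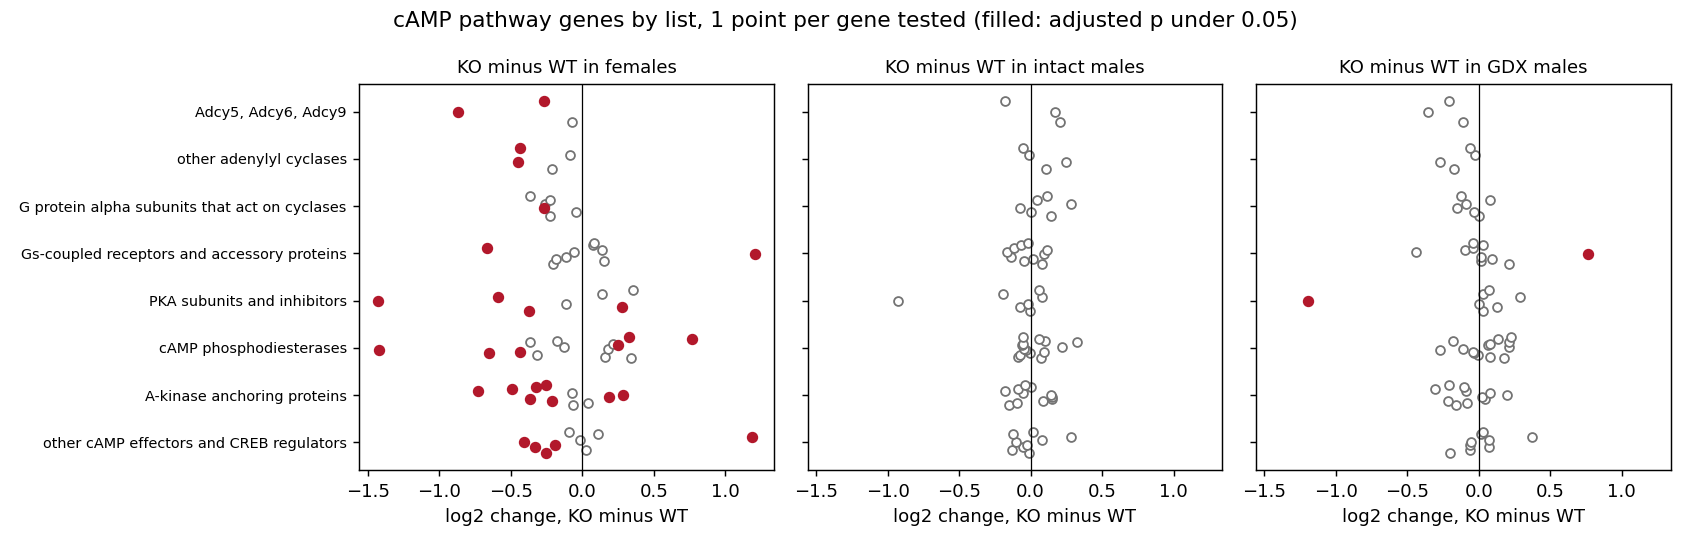
Log2 change between KO and WT glands (x axis) of each tested gene of the cAMP pathway lists (rows), in females, intact males and GDX males, 1 point per gene. Filled red points passed at an adjusted p under 0.05. In females 28 of 61 genes outside the top row passed, and in GDX males 2, Mrap and Prkar1a.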

How the data were processed

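RNA of 24 whole adrenal glands was measured on Affymetrix arrays. The labels' protocols give 500 ng of total RNA as input for biotinylated cDNA. The deposited values are log2 signals, and the submitters' processing notes name RMA as the method the authors used, with neither a program nor a probe set build. No batch was stated. The table holds 32202 probe sets, of which 22943 carry 1 gene symbol, 1731 several and 7528 none, and those with 1 were used. Probe sets were named from GEO's platform annotation, and positions and promoters came from RefSeq GRCm38.p6. Each gene was represented by its probe set with the highest mean, and a gene was tested where 4 or more arrays exceeded 5.

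Comparisons were contrasts in 1 limma model (version 3.58.1, R 4.3.3) of 6 group means over all arrays, with 18 residual and 3.41 prior degrees of freedom. The 12 contrasts were 9 of 2 groups and 3 interactions. Genes named besides the cyclases are Prkar1a, up to 2 called genes per list with the largest change in each comparison of genotype, and the 3 nearest patterns per cyclase. The cyclases and lists were chosen with earlier results of these data known. The script was tested on simulated data. Arrays are labelled biological replicates, and their number limits the precision. Same-numbered KO and WT GDX arrays deviated together (correlation of deviations 0.12 to 0.243 in 4 of 4 pairs), so replicate numbers were used as a block there as an alternative; the labels do not say what the number marks, and in each other comparison at least 1 pair lay under 0.1 (0.0934 at the lowest for castration in WT males). Alternatives were normalization, filter, probe set choice, groups in the fit, spread, marker covariates, control genotype and each array left out.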

Additional observations from a re-analysis of the deposited data

Results flagged for a closer look

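The knockout change of Adcy6 in females minus that in intact males was -1.04 on the log2 scale (limma interaction, adjusted p 0.00047), since Adcy6 was lower in all 4 KO females than in any WT female, with overlapping arrays in intact males. The same difference for Adcy2 was -0.70 (adjusted p 0.0126), from a dim gene. The WT genotypes differed between females and intact males, so sex and control genotype cannot be told apart in either gene.

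In 60 groups of 4 arrays, 10 cyclase and Prkar1a genes over 6 groups, 4 had an array far from the others, where chance gives about 1 in 20. Adcy5 read 5.87 in WT intact male array 2, against 5.71 to 5.72 in the other WT intact males, and 5.48 in WT GDX male array 2, against 5.84 to 5.91. Adcy9 read 8.74 in WT female array 4, against 8.60 to 8.62 in the other WT females. Adcy8 read 5.20 in WT female array 4, against 4.06 to 4.23, and was the only array over 5 for this gene.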

How the results depend on the processing

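The calls of Adcy6 and Adcy9 in females, of Adcy6 between KO GDX and KO intact males and of the Adcy6 interaction between females and intact males held under every alternative run, with adjusted p up to 0.0482. For Adcy6 in females the change ranged from -0.99 (without KO female array 1) to -0.58 (adipocyte covariate), and for Adcy9 from -0.46 to -0.24. The number of cyclases called between KO females and KO intact males was 1 in place of 2 after another quantile normalization, with a filter at 6 (which leaves out Adcy5) and with the medulla covariate, and 1 to 2 with each array left out. Between KO females and KO GDX males it was 0 in place of 1 with the medulla or the adipocyte covariate. In GDX males the medulla covariate called 1 (Adcy6, -0.38, adjusted p 0.0489) in place of 0, with 0 for each array left out. For the female minus GDX interaction the count was 0 to 1 with an array left out. The cause of these changes was not tested. With the replicate block within GDX males the change of Adcy6 had an adjusted p of 0.0909 and 721 genes were called in place of 609. A replicate block over all groups called 4604 genes in females in place of 4694, and neither block changed a call of Adcy5, Adcy6 or Adcy9. Calls of the other cyclases were not recomputed under alternatives.

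Counts over all genes moved more. The adipocyte covariate called 2619 genes in place of 4694 in females. Over all alternatives and left-out arrays the count ran from 0 to 24 in intact males (16 as reported; 0 with only both groups in the fit, 4 without KO intact array 1), 49 to 1180 in GDX males (609; 214 without KO GDX array 3, 1180 without KO GDX array 1, 49 with only both groups in the fit), 149 to 923 for castration in WT (648), 1374 to 2662 for castration in KO (2225), 1295 to 5980 between KO females and KO intact males (5906), 368 to 2755 between KO females and KO GDX males (2656) and 63 to 157 between WT females and WT GDX males (130). For the interactions it ran from 337 to 2481 (female minus intact, 2302), 49 to 663 (female minus GDX, 477) and 2 to 93 (GDX minus intact, 4; 88 without KO GDX array 1). Signals near 5, as of Adcy5 and Adcy2, limit what the arrays can show.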

Other observations

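The probe set that is listed for both Adcy3 and Cenpo, a centromere protein gene whose annotated span overlaps that of Adcy3 on chromosome 12 (4133116 to 4213525 for Adcy3, 4195398 to 4234255 for Cenpo), was left out of the tests, since its signal cannot be given to either gene. Its log2 signal was 7.15 ± 0.11 in KO females and 7.97 ± 0.05 in WT females, without overlap (SD, n = 4 each). In intact males it was 8.37 ± 0.07 in KO and 8.33 ± 0.24 in WT, and in GDX males 7.81 ± 0.10 in KO and 8.35 ± 0.34 in WT.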
